A study of Solanum lycopersicum with 12 samples.

Results

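The tomato defence protein genes GluB, NP24-I and LOC543878 were followed in roots of salt-treated seedlings. All spots that carry one of the 3 symbols in the platform annotation were taken, which gave 18 spots of 10368. A clone was spotted as 3 adjacent spots, so the 18 spots are 6 clones of 3456, with 2 clones for GluB, 3 for LOC543878 and 1 for NP24-I. Each clone is named here by its gene and its first spot number: GluB 4516, GluB 9247, LOC543878 6400, LOC543878 7648, LOC543878 9973 and NP24-I 2377. All 6 were measured on every array, as were 3018 clones in all, and none of their 36 spot values each lay at the limits of the scale.

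The arrays carried tomato cDNA clones from subtracted libraries, and each was hybridised with root RNA of a salt-treated and of a control seedling in different dyes. The 6 conditions are the salt-sensitive genotype ZS-5 and the salt-tolerant genotype LA2711, each after 30 min, 2 hr and 6 hr of salt. Each condition has 2 arrays with the dyes exchanged, 12 in all, and a dye-swap pair was averaged to 1 replicate. The sources used here give neither the salt dose nor the age and number of the plants, nor the kind of control at each time. Since they also do not say that plants of different conditions were grown apart, the p-values reflect the spread among the conditions, some of which may be technical.

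GluB is a basic beta-1,3-glucanase, an enzyme that cuts the beta-1,3-glucans of fungal cell walls and plant callose. NP24-I is an osmotin-like protein of the thaumatin-like family, a group of pathogenesis-related proteins some of which act on fungal membranes. The tomato NP24 protein is known for accumulating in salt-treated roots and cells. LOC543878 carries the synonym PR5 in the RefSeq gene table, which is the name of the same thaumatin-like family. Genes of these families are commonly responsive to ethylene, jasmonate and pathogen attack as well as to salt. In the gene order of that table, NP24-I and LOC543878 lie on the same chromosome with 2 genes between them, TPM-1 and LOC101264959, while GluB lies on another chromosome. Related cDNA clones can bind each other's transcripts, and whether the thaumatin-like clones did so was not tested.

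The deposited value is 1 log2 ratio per spot. All arrays run the same way, as the rounding of the ratios shows. Wherever the treated RNA was in Cy3, 100% of the ratios were rounded to 3 decimals, and wherever it was in Cy5, 100% of their inverses were. The sources used here do not settle which RNA is the numerator. If the scanned ratio was Cy5 over Cy3, a positive value is a higher signal in the control RNA, and if it was Cy3 over Cy5, in the treated RNA. Values are therefore given as lying on the positive or the negative side, with no statement of induction or repression. The tissue label could not be checked against marker genes, since ratios hold no levels. From 9013 to 9900 spots were measured per array. As deposited, the median clone lay at -0.02, 0.01 and -0.85 in ZS-5 and at 0.22, -0.35 and -0.98 for LA2711 at 30 min, 2 hr and 6 hr, so each array was centred on the median of the 3018 clones. Centred log2 ratios are used unless a value is called uncentred, and a clone is called where limma's adjusted p over the 3018 clones is under 0.05.

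After centring, 5 of the 6 clones were on the positive side and NP24-I 2377 on the negative side at 2 hr and at 6 hr, in both genotypes and on every array. Without centring LOC543878 6400 was the exception at 6 hr, with a mean of -0.73 in ZS-5 and with -0.080 on replicate 2 of LA2711. GluB 9247 reached 4.37 ± 0.004 (SD, n = 2 arrays) in ZS-5 at 2 hr, a 20.7-fold distance from the array median and the second highest value of the 3018 clones, at rank 2. Both GluB clones had their highest value at 2 hr, whereas LOC543878 7648 and LOC543878 9973 had theirs at 6 hr. For 7648 that order depended on the scaling, since its mean was 2.80 at 2 hr and 2.42 at 6 hr after quantile normalisation, and 2.87 and 1.82 after scaling arrays to equal spread. In LA2711 it was also higher at 2 hr (2.61) than at 6 hr (2.27) without centring. The NP24-I clone lay lowest at 6 hr, at -2.28 ± 0.517 in ZS-5 and -1.90 ± 0.733 in LA2711, although under the same scalings its mean was lower at 2 hr (-1.92 and -1.55) than at 6 hr (-1.58 and -0.997).

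**Figure D1:**
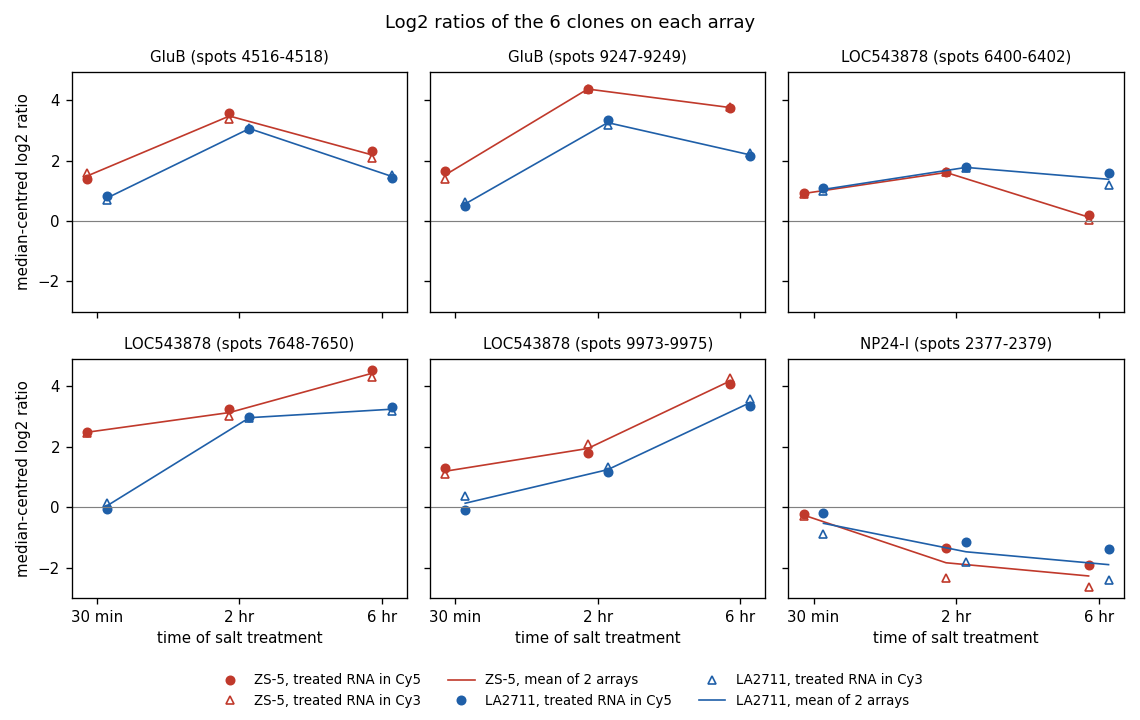
Centred log2 ratio (vertical axis) of the 6 clones at 30 min, 2 hr and 6 hr (horizontal axis, evenly spaced categories) in ZS-5 and LA2711; points are single arrays and lines join the means of the 2 dye-swap arrays. Both GluB clones are highest at 2 hr and LOC543878 7648 and 9973 at 6 hr, with 7648 higher at 2 hr after quantile normalisation (2.80 against 2.42) or equal-spread scaling (2.87 against 1.82), and NP24-I lies below 0 on all 12 arrays, though at 0.30 on one LA2711 30 min array without centring.

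On the 2 arrays of each condition, replicate 1 first, GluB 4516 read 1.57 and 1.40 after 30 min in ZS-5, 3.57 and 3.39 after 2 hr, and 2.31 and 2.07 after 6 hr. For LA2711 the same clone read 0.83 and 0.69, then 3.04 and 3.08, then 1.44 and 1.51. The 2 hr arrays were the highest in both genotypes, and only the arrays of ZS-5 at 30 min and LA2711 at 6 hr, neighbours in the order of the 6 conditions, overlapped. The second clone, GluB 9247, gave 1.40 and 1.65, then 4.37 and 4.37, then 3.74 and 3.77 in ZS-5. In LA2711 it gave 0.49 and 0.63, then 3.35 and 3.17, then 2.14 and 2.23. No neighbouring conditions of this clone overlapped, and its order ran from LA2711 at 30 min, the lowest, to ZS-5 at 2 hr.

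Averaged over the genotypes, GluB 4516 lay at 1.12 ± 0.265 (SE) at 30 min (limma adjusted p = 0.0178), at 3.27 ± 0.265 at 2 hr (adjusted p = 6.56e-06) and at 1.83 ± 0.265 at 6 hr (adjusted p = 0.000132). GluB 9247 was not called at 30 min, at 1.04 ± 0.408 (limma adjusted p = 0.114), and was called at 2 hr, at 3.81 ± 0.408 (adjusted p = 4.23e-05), and at 6 hr, at 2.97 ± 0.408 (adjusted p = 9.45e-05). At 30 min it was called after quantile normalisation (1.53, limma adjusted p = 0.0167) and equal-spread scaling (2.13, adjusted p = 0.00463). A fit of the 12 single arrays called it there too (adjusted p = 0.0237). The 2 clones of the gene thus shared the side and the time of the highest value. Without centring the 6 hr value of GluB 4516 was 0.92 (limma adjusted p = 0.0230), and its call at 30 min was lost when both ZS-5 30 min arrays were left out (adjusted p = 0.354).

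The 3 clones of LOC543878 had different courses. LOC543878 7648 gave 2.46 and 2.50 after 30 min of salt, 3.26 and 3.01 after 2 hr, and 4.56 and 4.31 after 6 hr in ZS-5. In LA2711 it gave -0.06 and 0.15, then 2.98 and 2.95, then 3.32 and 3.18. At 30 min this clone was already far on the positive side in ZS-5 and at the array median in LA2711, and the genotypes differed by -2.44 (LA2711 minus ZS-5), the widest genotype gap of any of the 6 clones at any time.

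LOC543878 9973 reached its highest values at 6 hr. Its ZS-5 arrays read 1.09 and 1.29 after 30 min, 1.80 and 2.09 after 2 hr, and 4.08 and 4.30 after 6 hr. The LA2711 arrays read -0.09 and 0.35, then 1.17 and 1.32, then 3.34 and 3.59. In both genotypes the 6 hr arrays stood clear of all others, and only LA2711 at 2 hr overlapped its neighbour, ZS-5 at 30 min. This clone was called at 2 hr, at 1.59 ± 0.310 (limma adjusted p = 0.00174), and at 6 hr, at 3.83 ± 0.310 (adjusted p = 2.75e-06). The corresponding values of LOC543878 7648 were 3.05 ± 0.496 (limma adjusted p = 0.000606) and 3.84 ± 0.496 (adjusted p = 6.22e-05). Neither clone was called at 30 min, where the mean was 1.26 for 7648 (limma adjusted p = 0.115) and 0.66 for 9973 (adjusted p = 0.177). The fit of the 12 single arrays called 7648 at 30 min (adjusted p = 0.0236). After scaling to equal spread the 6 hr mean of 7648 was 1.82 and its call was lost (adjusted p = 0.138).

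In ZS-5 at each time, and in LA2711 at 6 hr, LOC543878 6400 was nearer to the median than 7648 and 9973. In LA2711 at 30 min it was farther from it (1.04) than 7648 (0.04) and 9973 (0.13). At 2 hr in LA2711 it was farther (1.77) than 9973 (1.24). LOC543878 6400 read 0.90 and 0.92, then 1.61 and 1.61, then 0.21 and 0.04 in ZS-5, and 1.10 and 0.99, then 1.80 and 1.75, then 1.58 and 1.18 in LA2711. Its highest arrays were those of 2 hr in both genotypes, and its lowest those of ZS-5 at 6 hr, where the other LOC543878 clones were highest. Averaged over genotypes the clone was called at 30 min (0.98 ± 0.285, limma adjusted p = 0.0452), at 2 hr (1.69 ± 0.285, adjusted p = 0.000766) and at 6 hr (0.75 ± 0.285, adjusted p = 0.0318). Uncentred, its 6 hr mean turned to -0.16 (limma adjusted p = 0.636) and the 30 min call was lost (1.08, adjusted p = 0.0503), while the 6 hr call was also lost after quantile normalisation (0.12) and equal-spread scaling (0.38), with only the Cy3 arrays (0.61) and without the ZS-5 2 hr, LA2711 2 hr or LA2711 6 hr arrays (highest adjusted p = 0.737). The call at 30 min was also lost without any one of 3 arrays, ZS-5 2hr replicate 1, LA2711 30min replicate 1 or LA2711 2hr replicate 2 (highest adjusted p = 0.0599). It was lost as well without both 30 min or both 2 hr arrays of either genotype. Over left-out conditions the 30 min value ranged from 0.91 to 1.04.

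NP24-I 2377 was the only one of the 6 clones on the negative side. For ZS-5 the arrays read -0.28 and -0.24 after 30 min, -1.35 and -2.34 after 2 hr, and -1.91 and -2.65 after 6 hr. In LA2711 it gave -0.19 and -0.88, then -1.15 and -1.81, then -1.39 and -2.42. The 2 hr and 6 hr arrays overlapped within and between the genotypes, and so did the 30 min arrays of the genotypes. The mean was -0.40 ± 0.213 at 30 min (limma adjusted p = 0.225), -1.66 ± 0.213 at 2 hr (adjusted p = 0.000134) and -2.09 ± 0.213 at 6 hr (adjusted p = 1.24e-05). At 30 min the clone was called at -1.54 after quantile normalisation (adjusted p = 0.00474) and at -0.99 after equal-spread scaling (adjusted p = 0.0349).

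Of the 6 clones, NP24-I had the largest difference between dyes. The array with the treated RNA in Cy5 read higher than its partner in 6 of 6 conditions, by 0.69 on average (0.04 to 1.04), a size at the 99.4th percentile of all clones, for which the median was 0.20. The mean dye difference of the other 5 clones ran from -0.19 to 0.12. With only the Cy5 arrays the NP24-I value was -1.25 at 2 hr and -1.65 at 6 hr, and with only the Cy3 arrays -2.07 and -2.53, with the clone called each time by limma (largest adjusted p = 0.000785). The part of the dye in the size of the NP24-I value was otherwise not tested.

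Over all 6 conditions, 5 of the 6 clones were called on the positive side and 1, NP24-I, on the negative side. Of the 3018 clones 27.6% were called positive and 31.4% negative in that test. The values were 2.07 ± 0.385 for GluB 4516, 2.61 ± 0.506 for GluB 9247, 1.14 ± 0.266 for LOC543878 6400, 2.72 ± 0.512 for LOC543878 7648, 2.03 ± 0.532 for LOC543878 9973 and -1.38 ± 0.321 for NP24-I (limma adjusted p from 0.00821 to 0.0197). Uncentred, LOC543878 6400 was no longer called (0.81, adjusted p = 0.0718). Leaving out both ZS-5 2 hr arrays ended the calls of LOC543878 6400, LOC543878 9973 and NP24-I, with 3 clones left. LOC543878 6400 also lost its call without the LA2711 2 hr arrays, and LOC543878 9973 without the LA2711 6 hr arrays (highest adjusted p = 0.0592).

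At 30 min 2 of 6 clones were called, both positive, against 9.48% of all clones called positive and 8.75% negative. At 2 hr all 6 were called, 5 positive and 1 negative, against 32.2% and 36.6% of all clones. At 6 hr the split was again 5 and 1, against 44.9% and 42.4%, so that a call at 6 hr was common on these arrays. Without centring, 640 clones were called positive and 1140 negative at 2 hr, against 972 and 1106, and 882 and 1590 at 6 hr, against 1356 and 1279. The call of LOC543878 9973 at 2 hr was lost without the ZS-5 2 hr arrays (limma adjusted p = 0.0533).

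**Figure D2:**
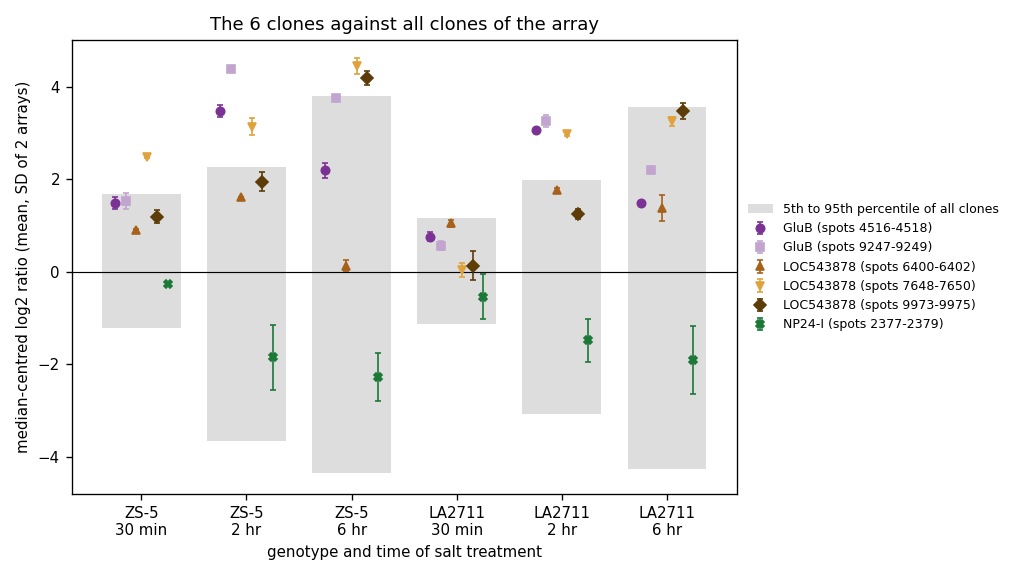
The 6 clones (coloured points, condition means of centred log2 ratios on the vertical axis) set against the spread of all 3018 clones in each of the 6 conditions (horizontal axis). GluB 9247 is at rank 2 from the top in ZS-5 at 2 hr, while NP24-I lies between the 13.7th and the 36.1st percentile.

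The spread of all clones widened with time, the median size of a value being 0.39 at 30 min, 0.96 at 2 hr and 1.97 at 6 hr. Placed within that spread, GluB 4516 stood at the 99.1st percentile in ZS-5 and the 97.7th in LA2711 at 2 hr, and at the 77.8th and 72.1st at 6 hr. GluB 9247 stood at the 99.9th and 98.2nd percentiles at 2 hr and at the 94.6th and 82.9th at 6 hr. LOC543878 7648 kept between the 93.5th and the 98.3rd percentile in 5 conditions and was at the 55.8th in LA2711 at 30 min. NP24-I, although its values grew in size, was at the 36.1st, 19.4th and 24.2nd percentiles in ZS-5 and at the 13.7th, 20.0th and 26.8th in LA2711.

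The comparison of times used both genotypes as replicates of a time. From 30 min to 2 hr, GluB 4516 rose by 2.15 ± 0.283 (limma adjusted p = 0.00084), GluB 9247 by 2.77 ± 0.299 (adjusted p = 0.000322), LOC543878 7648 by 1.79 ± 0.496 (adjusted p = 0.0260) and LOC543878 9973 by 0.93 ± 0.286 (adjusted p = 0.0371), where rose means moved to the positive side. NP24-I fell by 1.26 (SE 0.307, limma adjusted p = 0.0157), and LOC543878 6400, at 0.71, was not called (adjusted p = 0.158). Thus 4 of 6 clones were called positive and 1 negative, against 11.5% and 24.8% of all clones. Without centring LOC543878 9973 was not called (0.66, adjusted p = 0.118). Quantile normalisation left the calls of the GluB clones (1.41 and 2.23), and scaling to equal spread left that of GluB 9247 (1.42) and turned LOC543878 6400 to -0.69. The fit of the 12 single arrays also gave 5 calls, but lost that of NP24-I (adjusted p = 0.0517) and gained that of LOC543878 6400 (adjusted p = 0.0484). Single arrays also decided calls: that of LOC543878 9973 was lost without any one of 4 arrays (highest adjusted p = 0.0613), that of 7648 without ZS-5 2hr replicate 1 (0.0532) and that of NP24-I without LA2711 30min replicate 1 (0.0561). The call of 9973 was also lost without any one of the 6 conditions (0.76 to 1.11). That of 7648 was lost without the LA2711 30 min or 2 hr arrays (0.91 to 2.67 over left-out conditions). That of NP24-I was lost without the ZS-5 30 min or 2 hr arrays (-1.58 to -0.94 over left-out conditions). Uncentred, 112 clones were called positive and 851 negative, against 347 and 749.

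From 2 hr to 6 hr, 1 GluB clone and 1 LOC543878 clone were called, on opposite sides. GluB 4516 fell by 1.44 (SE 0.283, limma adjusted p = 0.00655), a call lost without the 6 hr arrays of either genotype (highest adjusted p = 0.0788), and GluB 9247 had a difference of -0.84 ± 0.299 that was not called (adjusted p = 0.0537). LOC543878 9973 rose by 2.23 ± 0.286 (limma adjusted p = 0.00217), LOC543878 7648 had 0.79 ± 0.496 (adjusted p = 0.216), LOC543878 6400 had -0.94 ± 0.360 (adjusted p = 0.0681) and NP24-I -0.43 ± 0.307 (adjusted p = 0.270). With 1 clone called positive and 1 negative, the background was 24.1% and 19.2%. This comparison depended on how arrays were scaled: 5 of the 6 clones were called without centring (286 positive and 1129 negative of all, against 728 and 580), and none of the 3018 clones after quantile normalisation or scaling to equal spread.

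From 30 min to 6 hr, LOC543878 9973 rose by 3.17 ± 0.286 (limma adjusted p = 4.99e-05), LOC543878 7648 by 2.58 ± 0.496 (adjusted p = 0.00195) and GluB 9247 by 1.93 ± 0.299 (adjusted p = 0.000631), while NP24-I fell by 1.69 (SE 0.307, adjusted p = 0.00143). GluB 4516 was called at 0.71 ± 0.283 (limma adjusted p = 0.0493), a value that turned to -0.30 without centring, -0.99 after quantile normalisation and -1.53 after scaling to equal spread, the last of these called on the negative side (adjusted p = 0.0275). The positive call was lost without any one of 8 of the 12 arrays (highest adjusted p = 0.0736). LOC543878 6400 was not called, at -0.22 ± 0.360 (limma adjusted p = 0.595), but was called negative at -1.24 without centring (adjusted p = 0.0332), at -1.44 after quantile normalisation (0.0211) and at -1.90 after equal-spread scaling (0.0232). The 4 positive calls and 1 negative call compare with 41.6% and 35.9% of all clones, or 1255 and 1082, which became 492 and 1350 without centring. After quantile normalisation LOC543878 9973 was called at 1.59, LOC543878 7648 was at 1.09, GluB 9247 at 0.018 and NP24-I at -0.043, none of these 3 called. Scaling to equal spread turned GluB 9247 to -0.74 and LOC543878 7648 to -0.42 and put LOC543878 9973 at 0.59 and NP24-I at -0.0082, none of them called. Without centring NP24-I was at -2.71 (adjusted p = 0.000341) and GluB 9247 was at 0.91 (adjusted p = 0.0583).

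**Figure D3:**
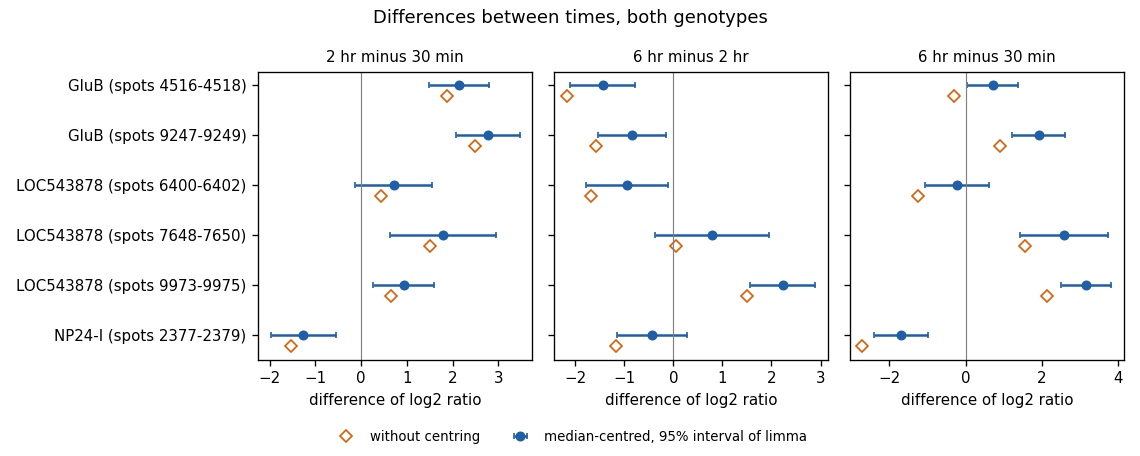
Differences between times in centred log2 ratio (horizontal axis) for the 6 clones (vertical axis), averaged over both genotypes, with 95% intervals from limma as bars. Diamonds are the values without centring, which for GluB 4516 from 30 min to 6 hr is -0.30. GluB 4516 lies above 0 from 30 min to 2 hr and below 0 from 2 hr to 6 hr, and LOC543878 9973 lies above 0 in each of the 3 differences.

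Genotypes were compared as LA2711 minus ZS-5 over the 3 times. GluB 9247 had a difference of -1.21 ± 0.244 (unadjusted p = 0.00127, limma adjusted p = 0.471), with a 95% interval from -1.78 to -0.65. Its differences were -0.96, -1.11 and -1.57 at 30 min, 2 hr and 6 hr, and its ZS-5 arrays lay above its LA2711 arrays at each time. GluB 4516 differed by -0.62 ± 0.231 (limma adjusted p = 0.612), LOC543878 9973 by -0.83 ± 0.233 (adjusted p = 0.481) and LOC543878 7648 by -1.27 ± 0.405 (adjusted p = 0.566), each lower in LA2711 at all 3 times. After quantile normalisation and equal-spread scaling the difference was -0.97 and -0.72 for GluB 9247 and -0.36 and -0.22 for GluB 4516. It was -0.88 and -0.75 for LOC543878 9973 and -1.45 and -1.44 for LOC543878 7648. The SD of all clones was wider in ZS-5 than in LA2711 at 30 min (0.94 and 0.75), 2 hr (1.78 and 1.55) and 6 hr (2.59 and 2.42). The part of that spread in the genotype differences was not tested.

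LOC543878 6400 had the opposite sign, 0.52 ± 0.294 (limma adjusted p = 0.916), with 0.14, 0.17 and 1.25 at 30 min, 2 hr and 6 hr. Without centring its 2 hr difference was -0.19. NP24-I differed by 0.15 ± 0.251 (limma adjusted p = 1.0), a 95% interval of -0.43 to 0.74, and its arrays of both genotypes overlapped at all 3 times. No clone of the 3018 was called by limma in this comparison, 0% on either side, and 196 had an unadjusted p under 0.05. That lower bar was met on the negative side by 4 of the 6 clones, against 4.47% of all clones, and on the positive side by 0, against 2.02%. A fit of the 12 single arrays, with the pairing of dye-swap arrays estimated as a correlation, called GluB 9247 (adjusted p = 0.0122).

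Within ZS-5 alone, GluB 9247 at 3.22 ± 0.702 (limma adjusted p = 0.0486) and LOC543878 7648 at 3.35 ± 0.706 (adjusted p = 0.0446) were called, 2 of 6 clones and both positive. All clones were called at 2.95% positive and 2.62% negative. GluB 9247 lost the call without centring (2.93, adjusted p = 0.0661) and without either ZS-5 30min replicate 2 or LA2711 30min replicate 2 (highest adjusted p = 0.0553). It also lost the call without both 2 hr or both 6 hr arrays of either genotype (highest limma adjusted p = 0.294). LOC543878 7648 lost its call without both ZS-5 2 hr, both ZS-5 6 hr or both LA2711 2 hr arrays (highest adjusted p = 0.285). Within LA2711 none of the 6 was called, with limma adjusted p from 0.130 to 0.226, against 2.39% positive and 1.86% negative. The unadjusted limma p was under 0.05 for 5 of the 6, as it was for 746 of the 3018 clones. A call in one genotype and not in the other does not show a difference between them.

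Differences between clones on the same array do not depend on centring. The GluB clones differed by -0.54 ± 0.651 (4516 minus 9247, SD, n = 6 conditions, exact sign-flip test p = 0.0938, adjusted over 15 pairs 0.156), and their values correlated with Pearson r = 0.91 across the 6 conditions, which share arrays and is given as a description. The gap was -0.04 in ZS-5 and 0.19 in LA2711 at 30 min, and -1.57 and -0.71 at 6 hr. GluB 4516 thus read lower than GluB 9247 at 6 hr in both genotypes.

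Among the LOC543878 clones, 6400 minus 7648 was -1.57, -1.53 and -4.31 in ZS-5 and 1.0, -1.19 and -1.87 for LA2711. The mean was -1.58 ± 1.69 (SD, n = 6, exact sign-flip p = 0.0625, adjusted 0.134). The difference 6400 minus 9973 was -0.28, -0.34 and -4.06 in ZS-5 and 0.91, 0.53 and -2.09 for LA2711, and 7648 minus 9973 averaged 0.69 ± 0.813 (exact p = 0.156, adjusted 0.234). Clones of one annotated gene were therefore up to 4.31 log2 units apart on average in one condition, against a median spot SD within a clone of 0.0830 to 0.135. What separates the inserts of these clones was not tested, and no single value is given for the gene.

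**Figure D4:**
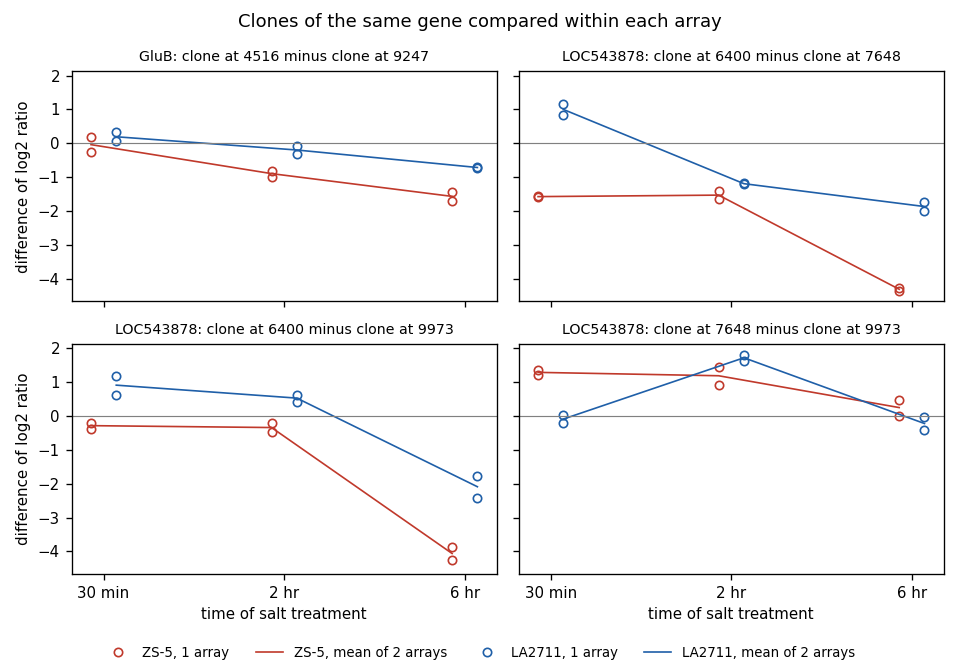
Difference in log2 ratio between clones of the same gene on the same array (vertical axis), for the GluB pair and the 3 LOC543878 pairs in the 6 conditions (horizontal axis); points are arrays. The widest gap is that of LOC543878 6400 minus 7648 in ZS-5 at 6 hr, at -4.31.

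NP24-I lay below each of the other 5 clones in 6 of 6 conditions, by mean differences of 2.52 to 4.10. Each of these 5 pairs had an exact sign-flip p of 0.0312, the smallest that 6 conditions allow, and an adjusted p of 0.0938 over the 15 pairs. No pair passed the threshold. LOC543878 and NP24-I are members of one protein family. After centring, the LOC543878 clones and NP24-I lay on opposite sides of the array median at 2 hr and 6 hr on all arrays. LOC543878 6400 was close to the median in ZS-5 at 6 hr (0.21 and 0.04). Without centring it was on the side of NP24-I there (mean -0.73) and on replicate 2 of LA2711 at 6 hr (-0.080).

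The named genes most like each clone were found by the root mean square difference over the 6 conditions, after the difference was taken within arrays. NP24-I was closest to AAP2, an amino acid permease, at 0.397, then to ERF3, an ethylene response factor, at 0.625, and ACS7, an ethylene synthesis enzyme, at 0.675. LOC543878 9973 was closest to SAM3, an S-adenosylmethionine synthetase, at 0.600, then to LKT1 at 0.858 and GS2, the plastid glutamine synthetase, at 0.944. LOC543878 6400 was closest to JERF1, an ethylene- and jasmonate-responsive factor, at 0.581, then to LOC778326 at 0.802 and LOC544267 at 0.879. GluB 4516 was closest to LOC544267 at 0.629, then to LKT1 at 1.04 and GS2 at 1.05. GluB 9247 was closest to ADH2, an alcohol dehydrogenase, at 0.898, then to GS2 at 0.923 and LOC544267 at 1.23. LOC543878 7648 was closest to GS2 at 0.897, then to AOS at 1.08 and LOC778326 at 1.14. Across the 6 conditions Pearson r with the closest gene ran from 0.14 (LOC543878 6400 with JERF1) to 0.97 (NP24-I with AAP2). For LOC543878 7648 it was 0.75 with GS2 and 0.96 with AOS, so closeness in value need not mean a shared course. Only the closest clone of each gene was compared, so a match holds for that clone and not for the gene. The AOS clone was AOS 1540, at 3.17 at 2 hr and 3.49 at 6 hr, while every other AOS clone lay on the negative side then. GS2 was the clone at 1831 for LOC543878 7648 and GluB 9247, and that at 4084 for LOC543878 9973 and GluB 4516.

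From a list of 31 other pathogenesis-related genes, 1, the peroxidase gene TPX2, was named on the arrays, with 1 clone. It was at 1.0 at 30 min (limma adjusted p = 0.170), 1.46 at 2 hr (adjusted p = 0.0194) and 2.21 at 6 hr (adjusted p = 0.00144), and uncentred it was not called at 2 hr (1.29, adjusted p = 0.0543). Genes of ethylene and oxylipin synthesis and response gave 12 clones: 7 of AOS, the allene oxide synthase of jasmonate synthesis, 2 of JERF1, and 1 each of DES, ACS7 and ERF3. At 30 min 7 were called positive and 3 negative, with a median of 0.98. Of all clones, 9.48% and 8.75% were called in these directions. At 2 hr 4 were called positive and 7 negative (median -1.25), against 32.2% and 36.6% of all clones, and at 6 hr 3 positive and 7 negative (median -2.43), against 44.9% and 42.4%, with medians of all clones between -0.043 and 0.0146. Uncentred, the 6 hr split was 1 positive and 9 negative. AOS makes up 7 of the 12 clones and so weighs most in the median, and the clones AOS 1540, at 3.49, and JERF1 5092 and 6988, at 0.85 and 0.83, were called positive at 6 hr, the last 2 at -0.061 and -0.088 without centring. The list median lay on the positive side at 30 min and on the negative side afterwards, while the GluB and LOC543878 clones had means on the positive side at all 3 times, except LOC543878 6400 at 6 hr without centring.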

How the data were processed

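The authors deposited 1 table of log2 ratios per spot for 12 two-colour arrays. The sources used here do not give how the arrays were scanned, background-corrected and normalised, and the depth of signal behind a ratio is unknown. Gene symbols come from the platform annotation, which names 79 clones of 38 genes. Of these genes, 37 were found in a RefSeq gene table (assembly SLM_r2.1).

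Spot values at the limits (a ratio, or its inverse, of 0.001 or less) were left out, the 3 spots of a clone were averaged, each array was centred by subtracting the median of the 3018 clones measured on all arrays, and the 2 dye-swap arrays of a condition were averaged to 1 replicate. Fits used limma 3.58.1 in R 4.3.3 with lmFit and eBayes on all 3018 clones, two-sided, with Benjamini-Hochberg adjustment and a threshold of 0.05. The overall and genotype tests were of means against 0, with genotype, time, or both as terms. Pairs of clones were compared by exact sign-flip tests. The fits were tested on simulated data.

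Every clone of the 3 genes is described. The closest genes were the 3 named genes with the smallest root mean square difference to a clone, each gene taken by its closest clone. The members and lists were chosen with earlier results of these data known. Alternatives changed the centring, scaling, limits, spot summary, clone filter and array model, left out arrays or conditions, and, chosen after seeing the data, used 1 dye orientation.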

Additional observations from a re-analysis of the deposited data

How the results depend on the processing

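Of 2466 recomputed values, 2171 kept their direction and side of the threshold or stayed within the spread, 91 lost and 44 gained a call, 131 moved and 29 reversed. The 6 calls at 2 hr and at 6 hr held in 5 to 6 clones when arrays or conditions were left out. At 6 hr the call of LOC543878 6400 was also lost without centring and after quantile normalisation. Those of LOC543878 6400 and 7648 were lost there after equal-spread scaling. Clones called of 6 went from 2 at 30 min to 1 without centring or with clones measured on at least 1 array per condition, and to 4 after quantile normalisation, equal-spread scaling or a fit of the 12 arrays. They went from 2 within ZS-5 to 1 under the first 2 of these settings, 5 after quantile normalisation and 4 under the last 2. Within LA2711 they went from 0 to 1 after quantile normalisation and to 4 after equal-spread scaling or with the 12 arrays, and between genotypes from 0 to 1 with the 12 arrays. From 30 min to 2 hr they went from 5 to 2 (quantile) and 1 (equal spread), from 2 hr to 6 hr from 2 to 5 (no centring), 0 (quantile and equal spread) and 4 (12 arrays), and from 30 min to 6 hr from 5 to 2 under both scalings. Leaving out arrays or conditions gave 3 to 6 over all conditions, 0 to 4 at 30 min, 0 to 5 within ZS-5, 3 to 5 from 30 min to 2 hr, 1 to 3 from 2 hr to 6 hr and 4 to 5 from 30 min to 6 hr.

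Directions turned for LOC543878 6400 at 6 hr (-0.16, no centring) and from 30 min to 2 hr (-0.69, equal spread). The genotype difference of NP24-I turned to -0.28 (quantile) and -0.30 (equal spread) and ranged from -0.018 to 0.37 over left-out arrays. From 2 hr to 6 hr, LOC543878 7648 turned to -0.38 and -1.05 and NP24-I to 0.34 and 0.56 under the same scalings, and 7648 ranged from -0.031 to 1.61 over left-out conditions. From 30 min to 6 hr, GluB 4516 turned to -0.30, -0.99 and -1.53 (no centring, quantile, equal spread, called in the last), GluB 9247 to -0.74 and LOC543878 7648 to -0.42 (equal spread), and LOC543878 6400 ranged from -0.77 to 0.33. GluB 4516 minus LOC543878 9973 turned to -0.071 with the Cy3 arrays and ranged from -0.31 to 0.46. GluB 9247 minus LOC543878 7648 turned to 0.10 (quantile) and 0.053 (equal spread) and ranged from -0.38 to 0.082. The cause was not tested.

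Over all 3018 clones, the number called moved by over 1.5 times, or its split between the sides by over 10 points, under these settings. Quantile normalisation gave 615 positive and 1176 negative over all conditions (833 and 949 as reported), 568 and 1134 at 30 min (286 and 264), 658 and 1180 at 2 hr, 701 and 1191 at 6 hr, 306 and 738 within ZS-5 (89 and 79), 224 and 660 within LA2711 (72 and 56), 0 from 2 hr to 6 hr (1308) and 1114 from 30 min to 6 hr (2337). Equal spread gave 1384 at 30 min, 1619 at 6 hr (2635), 473 within ZS-5, 286 and 413 within LA2711, 148 and 540 from 30 min to 2 hr (347 and 749), 0 from 2 hr to 6 hr, and 285 and 523 from 30 min to 6 hr (1255 and 1082). The 12 arrays gave 766 within ZS-5, 170 and 281 within LA2711, and 46 between genotypes (0). No centring gave 157 and 43 within ZS-5, and its other splits stand beside the results. Leaving out a condition gave 605 to 1945 over all conditions (1782), down to 238 at 30 min (550), 0 to 975 within ZS-5 (168), 0 to 266 within LA2711 (128), up to 12 between genotypes (0), down to 628 from 30 min to 2 hr (1096) and down to 649 from 2 hr to 6 hr. Without the ZS-5 2 hr arrays, 508 were called positive and 948 negative at 2 hr (972 and 1106).

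No paired analysis was possible by replicate number because the 2 repeats of a condition are a dye swap and were averaged to 1 replicate. The number of arrays limits the precision.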
